A study of Xenopus laevis with 46 samples.

Results

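The genes of the cytosolic ribosomal proteins were followed in animal pole explants of *Xenopus laevis* collected at several stages, with and without inhibitors of chromatin regulators. Members were chosen by symbol alone. A gene was taken if its symbol was rpl or rps followed by a number and an optional suffix, or rpsa or rplp0 to rplp2, with the .L or .S ending that marks the homeologous copies of this allotetraploid frog, and the rps6k kinases were left out. The rule found 137 genes among the 49281 listed. They carry 79 symbols, of which 58 were listed with both copies, 16 with .L alone and 5 with .S alone. By name, 56 of the genes belong to the small subunit and 81 to the large subunit.

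All explants came from wild-type embryos and were dissected at the early blastula stage, and 46 libraries fell into 18 groups. In a first set of libraries embryos were kept from the 2-cell stage in IBET (IBET762, a BET inhibitor, which keeps BET proteins off acetylated histones) or in DMSO, the vehicle, and explants were collected at stage 9 (labelled blastula animal pole) or stage 13 (labelled epidermal), with 2 libraries per group. A second set had the same layout with TSA, an inhibitor of histone deacetylases, and its own DMSO groups. In the third set, with 3 libraries per group, explants were uninjected or came from embryos injected with wnt and chd (called Wnt/Chrd explants), and were collected untreated at stage 9, or with DMSO or IBET from stage 9 onwards at stages 13 and 17. There the uninjected explants carry the label epidermal and the Wnt/Chrd explants the label neural crest-reprogrammed, and a change from stage 9 to stage 13 also sets DMSO against no treatment. Libraries of a group are told apart by the letters a to c of their count columns. The number of clutches behind the libraries was not given, so p-values measure the spread between these libraries.

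A ribosome joins a small subunit, which reads the mRNA, to a large subunit, which forms peptide bonds, and nearly all of its proteins are needed in equal number. Their mRNAs begin with a terminal oligopyrimidine motif, through which the TOR kinase and Larp1 control their translation. A frog egg is loaded with ribosomes made during oogenesis. The embryo lives on these at first and makes new ribosomes in quantity only later in development. The values here are mRNA levels and say nothing of translation.

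Libraries held 12902520 to 32022992 reads counted in genes, and between 64752 and 852202 of these lay in ribosomal protein genes. Levels are given in CPM, the reads of a gene relative to all reads in genes after TMM scaling over all 46 libraries, and are means ± SD over libraries where an SD is shown. They are not corrected for gene length, so where levels of different genes, copies or subunits stand side by side they describe reads only. Reads that fit more than 1 place in the genome were not counted, and they made up 8.97% to 23.6% of each library. Reads shared by near-identical copies, paralogs or processed pseudogenes are thus missing, and the split of a level between .L and .S is uncertain where the copies are alike. Labels were checked with 8 epidermal genes (both copies of *krt12.4*, *tp63*, *grhl3* and *foxi1*). Their summed level was 2.30 to 11.8 CPM in uninjected explants at stage 9 and 5206 to 10800 CPM with DMSO at stage 13. In the vehicles of the IBET and TSA sets at stage 9 it was already 164 to 269 CPM and 152 to 188 CPM. The neural crest list (both copies of *snai2*, *foxd3*, *sox8* and *pax3*) summed to 2394 to 2582 CPM in Wnt/Chrd explants at stage 17 and to 10.4 to 28.1 CPM in uninjected ones. Globin and blood regulator genes summed to 5.995 CPM at most. The libraries of a label were not alike in all lists. In Wnt/Chrd explants with DMSO at stage 13 the epidermal list ran from 259 to 5551 CPM. Mesoderm genes (both copies of *myod1*, *tbxt* and *actc1*) summed to 82.6 to 92.8 CPM in the IBET vehicle at stage 13. They summed to 25.7 to 28.5 CPM with IBET, to 2.51 to 3.27 CPM in the TSA vehicle and to 44.6 to 57.5 CPM with TSA. The neural crest list summed to 25.7 to 27.2 CPM in the TSA vehicle at stage 13 and 148 to 156 CPM with TSA. Endoderm genes (both copies of *sox17a*, *sox17b.1* and *gata4*) summed to 22.7 to 25.6 CPM in the TSA vehicle at stage 9 and 130 to 151 CPM with TSA. The part of these differences in later comparisons was not tested.

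At stage 9 ribosomal protein genes took between 0.343% and 0.610% of the reads in genes in every library, treated or not. With vehicle they took 1.36% to 2.33% at stage 13 and 1.89% to 3.07% at stage 17. In uninjected explants the share was 0.354%, 0.377% and 0.343% at stage 9, then 1.77%, 1.64% and 1.70% with DMSO at stage 13, and 2.32%, 2.01% and 1.89% at stage 17. Each value at stage 13 lay above each value at stage 9. The small subunit took between 42.1% and 44.7% of the summed level of the family in all 18 groups. Members moved together: the median correlation of a member with the median of all others, over the 18 group means, was 0.992, and it was above 0.95 for 129 of the 137. These are correlations over groups that share libraries, depth and stage, and they are given as a description.

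**Figure D1:**
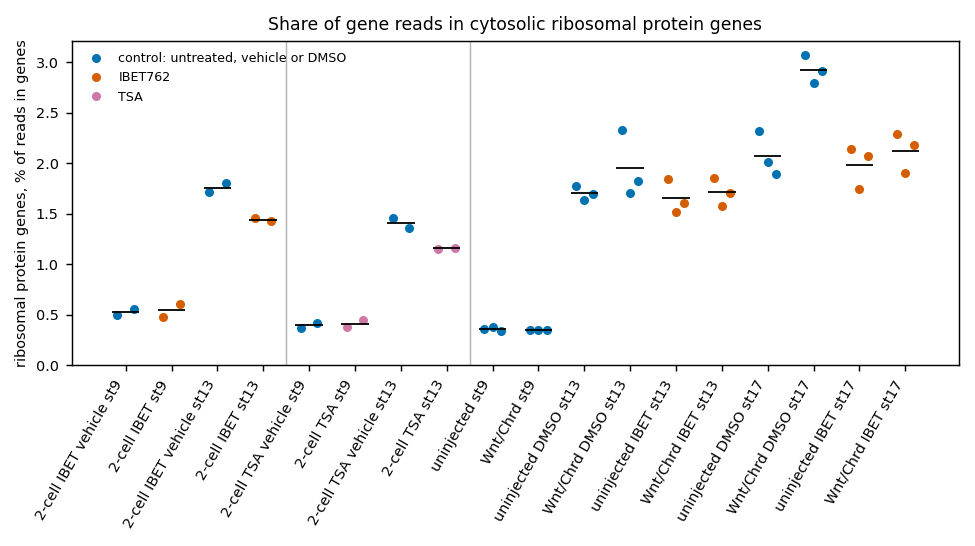
Share of reads in genes that lay in the 137 ribosomal protein genes (vertical axis, percent), 1 point per library and a bar at the group mean, in the 18 groups ordered by library set and stage. All stage 9 libraries sit at or under 0.610% and all later libraries at or above 1.15%, and the Wnt/Chrd DMSO libraries of stage 17 sit highest, at 2.79% to 3.07%.

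From stage 9 to stage 13 nearly the whole family rose in vehicle-treated explants. Of the 134 members with enough reads to test, 132 were higher at stage 13 in each of 4 series, the vehicle explants of the IBET and TSA sets, the uninjected explants and the Wnt/Chrd explants (edgeR quasi-likelihood test, Benjamini-Hochberg adjusted p under 0.05). Over all genes tested, 36.4%, 39%, 35.9% and 30.8% were called higher in these series and 37.2%, 39%, 35.4% and 31.7% lower, which is 73.6%, 78%, 71.3% and 62.5% either way. The median log2 fold change of the members was 2.40, 2.603, 3.24 and 3.48, against medians of −0.05, −0.04, −0.03 and −0.09 over all genes. Summed over the family, the level went from 4006 ± 439 CPM (SD, n = 2) to 20063 ± 1556 CPM in the vehicle explants of the IBET set and from 2615 ± 124 CPM (SD, n = 3) to 21279 ± 1958 CPM in uninjected explants, which is 5.01-fold and 8.14-fold. Scaling matters to the size of this rise. With library totals alone the median of all genes moved to −0.65, −0.78, −0.88 and −0.94, and that of the members to 1.81, 1.86, 2.38 and 2.61, with 131, 131, 132 and 132 members higher and 1 lower in each series. As shares of reads the rises were 3.33-fold and 4.76-fold. Leaving out any single library left 132 members higher in all 4 series. In the uninjected explants the sum of the 8 epidermal genes moved over the same interval, as given above, and its part in the rise was not tested. At stage 9 this sum was higher in the vehicles of the IBET and TSA sets than in the third set. The series thus started from unlike levels of these genes, and the part of this in the sizes of the rises was not tested. In bulk RNA fewer cells of a type and less RNA per cell cannot be told apart.

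The largest rise in the third set belonged to *rpl26.L*, a large-subunit protein known in mammals to bind the p53 mRNA. It stood at 1.23, 1.34 and 1.42 CPM in uninjected explants at stage 9 and at 79.6, 64.5 and 62.3 CPM at stage 13, groups that lie far apart, with a log2 fold change of 5.77 ± 0.22 (SE, edgeR adjusted p = 2.6e-06). Its other copy, *rpl26.S*, followed with 5.33 ± 0.22, and *rps21.S*, a small-subunit protein, with 5.22 ± 0.34. In the vehicle explants of the IBET set the largest rise was that of *rpl8.L*, whose product lies near the peptidyl transferase centre. It went from 5.72 and 7.22 CPM to 137 and 153 CPM (4.50 ± 0.18, edgeR adjusted p = 5.3e-06). In uninjected explants it went from 4.70, 6.64 and 3.46 CPM to 197, 145 and 140 CPM. At the low end of the 132 stood *rpl12.L*, a protein at the base of the stalk, *rps12.S* and *rps18.L*. *rpl12.L* measured 39.8, 45.9 and 39.0 CPM at stage 9 and 118, 136 and 112 CPM at stage 13 in uninjected explants, 1.64 ± 0.17 on the log2 scale, and *rps12.S* and *rps18.L* rose by 1.57 ± 0.17 and 1.72 ± 0.16. In uninjected explants 127 members rose by more than 2 on the log2 scale and 77 by more than 3. How many of all genes rose as far was not counted.

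Members with named roles rose along with the rest in uninjected explants. *rpsa.L*, of the small-subunit protein that is homologous to the laminin receptor, measured 9.02, 9.51 and 9.40 CPM at stage 9 and 152, 119 and 105 CPM at stage 13, a rise of 3.83 ± 0.20. The stalk that binds translation factors is built of P0, P1 and P2, and its genes rose by 3.13 ± 0.35 (*rplp0.L*), 1.84 ± 0.27 (*rplp0.S*), 2.71 ± 0.21 (*rplp1.L*), 3.26 ± 0.17 (*rplp2.L*) and 2.76 ± 0.25 (*rplp2.S*). *rpl5* and *rpl11*, whose products enter the ribosome with 5S RNA and bind Mdm2 in mammals, rose by 2.37 to 2.64 over their 4 copies. *rps6.L* and *rps6.S*, whose product is the classic substrate of S6 kinase, rose by 4.29 ± 0.19 and 3.42 ± 0.20. *rps27a*, made as a fusion to ubiquitin, rose by 3.15 ± 0.16 in the .L copy and 3.82 ± 0.17 in the .S copy. All of these carried an edgeR adjusted p of 0.00052 or less.

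The paralogs did not all follow. *rpl22l1.L* and *rpl7l1.L*, the paralogs of *rpl22* and *rpl7*, rose by 3.26 ± 0.30 and 2.54 ± 0.16. *rps27l*, a paralog of *rps27* that p53 induces in mammals, was the only tested symbol that did not pass. *rps27l.L* measured 9.63, 12.9 and 11.6 CPM at stage 9 and 6.51, 7.82 and 8.49 CPM at stage 13 in uninjected explants, so that the stage 13 libraries all lay lower (−0.50 ± 0.26, edgeR adjusted p = 0.12). *rps27l.S* stayed between 0.408 and 3.61 CPM in all 46 libraries. *rps27.L* and *rps27.S* rose by 2.86 ± 0.15 and 2.40 ± 0.15 in the same explants. The 3 members without a test in nearly all comparisons were *rps24.L* and both copies of *rpl3l*, the paralog of *rpl3* known from heart and skeletal muscle in mammals. None had more than 21 reads in a library. *rpl3l.S* had 0 reads in the 3 uninjected DMSO libraries of stage 13 and 0.142, 0.552 and 1.07 CPM in the 3 IBET libraries.

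Other lists of the same machinery had smaller medians. In uninjected explants *rack1.L*, whose product sits on the small subunit, rose by 3.66 on the log2 scale, within the range of the family. Of 124 tested genes of ribosome biogenesis (nucleolar processing and assembly factors) 85 were higher (68.5%, against 35.9% of all genes) and 3 lower, with a median of 1.13, and of 73 translation factors 58 were higher (79.5%) and 3 lower, with a median of 1.38. Mitochondrial ribosomal proteins, which are encoded in the nucleus but serve another ribosome, split into 26 higher (26.3%) and 29 lower (29.3%) of 99, with a median of −0.08.

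From stage 13 to stage 17 few members passed the main test, and the count depended on the setting. In uninjected explants 3 of 134 were higher and 0 lower (19.7% and 18.1% of all genes, 37.7% either way), with a member median of 0.20. They were *rpsa.L*, which went from 152, 119 and 105 CPM to 235, 200 and 170 CPM with no overlap (0.68 ± 0.22, edgeR adjusted p = 0.041), *rpl19.L* (0.56 ± 0.18) and *rps27l.S* (1.26 ± 0.40). Any single library left out brought the count to 0 or 1. With the library letter as a block 19 were higher. The levels of 32 members at stage 17 lay wholly above those at stage 13 (29.4% of all genes with at least 1 CPM) and those of 1 wholly below. In Wnt/Chrd explants 0 of 134 passed (13.7% of all genes, of which 6.46% higher), while 19 had an unadjusted p under 0.05, DESeq2 called 7 higher, the block by letter 21, and edgeR without library a of Wnt/Chrd DMSO at stage 13 called 65. That library took 2.33% of its reads from the family, against 1.71% and 1.83% in libraries b and c. Library a had the highest share in every group of the third set with DMSO or IBET. The summed level of the family was 1.15-fold and 1.24-fold that of stage 13 in the 2 kinds of explant. Over the same interval 53 of 124 biogenesis genes were lower (42.7%, against 18.1% of all genes) and 3 higher in uninjected explants.

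**Figure D2:**
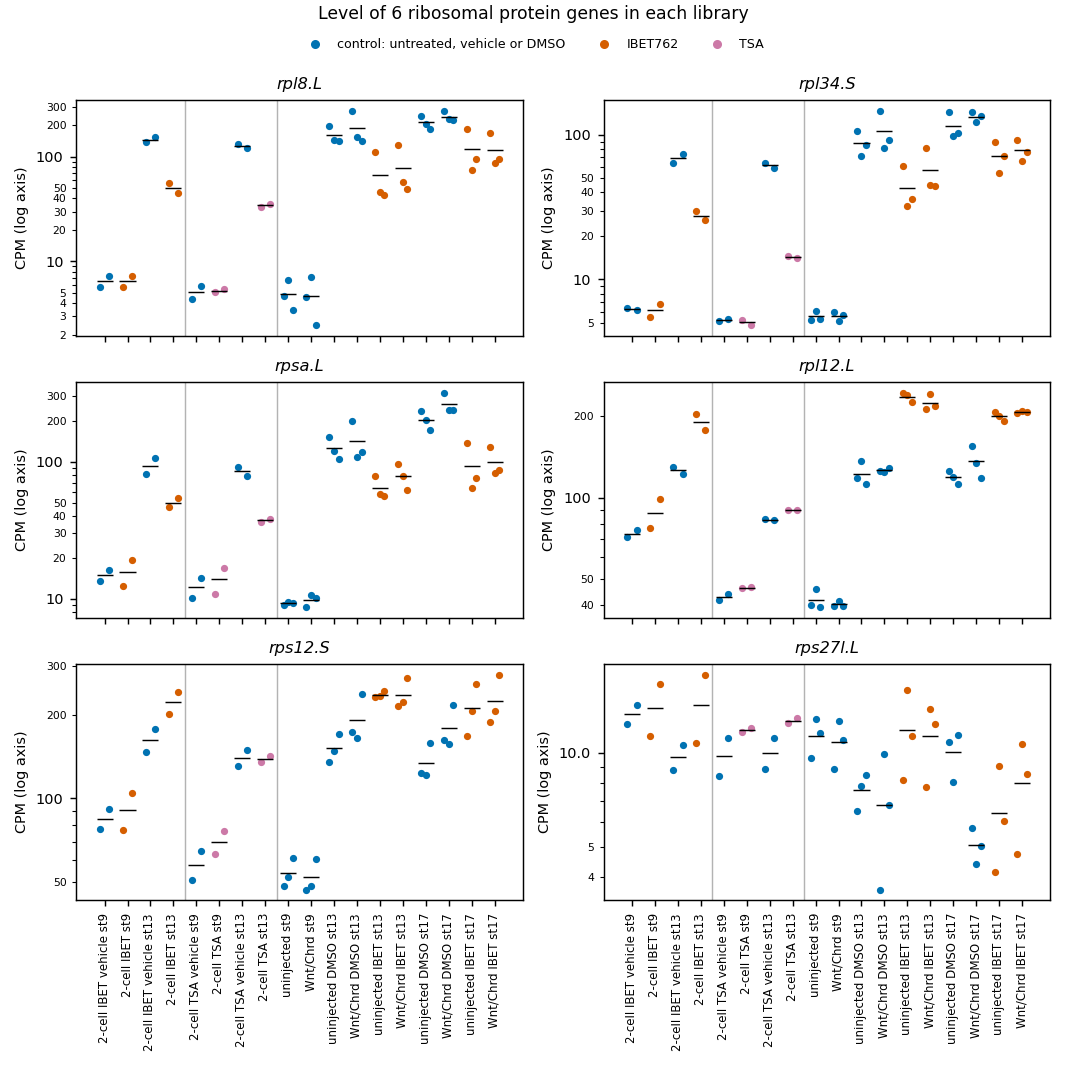
Levels of 6 members (CPM after TMM scaling, log axis), 1 point per library in the 18 groups, with points coloured by treatment. *rpl8.L* sits under 8 CPM in all stage 9 libraries and over 120 CPM in all later vehicle libraries, and *rpl12.L* lies higher with IBET than with its vehicle in every later comparison.

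At stage 9 no member passed the main test of edgeR, which left the letter out, with either inhibitor applied from the 2-cell stage. With IBET 0 of 134 passed (2.37% of all genes were called, 2.18% lower), and with TSA 0 of 134 passed (2.02%, with 1.04% higher). In both, 0 members had an unadjusted p under 0.05 in edgeR and DESeq2 called 0. Inhibitor and vehicle libraries with the same letter deviated together, with a correlation over genes of 0.78 in each set. With 2 libraries a group, different letters take the same value with the sign turned. With the letter as a block edgeR called 1 member higher and 6 lower with IBET and 3 higher and 1 lower with TSA. *rpl8.L* measured 5.72 and 7.22 CPM with vehicle and 5.76 and 7.26 CPM with IBET, values that overlap fully. The log2 fold changes of single members ran from −0.51 to 0.46 with IBET around a median of 0.00. The median with TSA was 0.02.

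At stage 13 the same treatments left the family below its vehicle. With IBET from the 2-cell stage 74 of 134 members were lower and 2 higher, where 29.3% and 27.4% of all genes were called, and the member median was −0.42 against 0.03 over all genes. The summed level was 15253 ± 223 CPM with IBET and 20063 ± 1556 CPM with vehicle (SD, n = 2 each), a ratio of 0.760, and the share of reads 1.45% and 1.43% against 1.71% and 1.80%. The falls were spread over both subunits, 31 of 55 tested members of the small and 43 of 79 of the large. *rpl8.L* fell most, from 137 and 153 CPM to 56.5 and 45.0 CPM (−1.51 ± 0.16, edgeR adjusted p = 0.00051). *rpl34.S* measured 63.8 and 73.9 CPM with vehicle and 29.6 and 25.6 CPM with IBET (−1.31 ± 0.16, edgeR adjusted p = 0.00077), and *rpl37.S* fell by 1.15 on the log2 scale. For all 3 the libraries of the groups lie well apart. Without library b of IBET at stage 13 edgeR called 45 lower and 1 higher.

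The 2 members that rose with IBET were among those with the smallest rise from stage 9. *rpl12.L* measured 130 and 123 CPM with vehicle and 204 and 178 CPM with IBET (0.61 ± 0.14, edgeR adjusted p = 0.0088). *rps12.S* measured 147 and 177 CPM with vehicle and 201 and 242 CPM with IBET (0.46 ± 0.15, edgeR adjusted p = 0.037). Their other copies did not rise: *rps12.L* fell by 0.72 on the log2 scale, from 165 and 196 CPM to 110 and 106 CPM, and *rpl12.S* had a log2 fold change of −0.07. None of the 5 stalk genes passed, with log2 fold changes from −0.32 (*rplp2.S*) to 0.04 (*rplp0.L*, 211 and 263 CPM with vehicle, 240 and 245 CPM with IBET). Of the 5S partners only *rpl11.L* was lower (−0.41 ± 0.12). *rps6.L* and *rps6.S* were lower by 0.68 and 0.43, and *rpsa.L* fell by 0.88. Neither copy of *rps27* passed (−0.03 and 0.01).

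With TSA from the 2-cell stage 125 of 134 members were lower at stage 13 and 1 higher, where 35.8% and 36.9% of all genes were called. The median was −0.91 against 0.12 over all genes, and the summed level was 9126 ± 40.3 CPM against 16946 ± 748 CPM (SD, n = 2 each), a ratio of 0.539. This depth of the fall rests on the scaling. The TMM factors were 1.265 and 1.267 in the TSA libraries and 0.831 and 0.830 in their vehicle, and with library totals alone 75 members were lower and 8 higher, with a member median of −0.32 where all genes had 0.71. As a share of reads in genes the ratio was 0.821, close to the 0.820 of IBET. As a share of all reads the family took 0.747% with TSA and 1.06% with vehicle, and 0.992% and 1.34% in the IBET set. Reads that fit more than 1 place made up 17.1% with TSA and 11.7% with vehicle, and 14.8% and 11.9% in the IBET set. *rpl34.S* fell most, from 64.2 and 59.2 CPM to 14.5 and 14.1 CPM (−2.10 ± 0.12, edgeR adjusted p = 3.3e-06). *rpl8.L* went from 133 and 121 CPM to 33.2 and 35.7 CPM (−1.86 ± 0.11), and *rpl34.L* from 75.03 and 69.9 CPM to 22.6 and 21.0 CPM (−1.72 ± 0.11). In each of the 3 the TSA libraries sat far below their vehicle.

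Of the 5 stalk genes 4 were lower with TSA, *rplp0.L*, *rplp0.S*, *rplp1.L* and *rplp2.L*, by 0.28 to 0.59 on the log2 scale, and all 4 turned to slight rises with library totals. All 4 copies of *rpl5* and *rpl11* were lower, by 0.46 to 0.60, of which *rpl5.S* and *rpl11.L* turned sign with library totals. *rps6.L* and *rps6.S* fell by 1.15 and 1.02 and *rpsa.L* by 1.17. The member that rose was *rps27l.S*, from 1.13 and 1.01 CPM to 2.29 and 1.90 CPM (0.98 ± 0.33, edgeR adjusted p = 0.026), a gene at the low end of the family. *rpl12.L* (82.9 and 82.4 CPM with vehicle, 90.1 and 89.9 CPM with TSA), *rps12.S* and *rps18.L* did not pass.

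The rise from stage 9 to stage 13 was smaller under the inhibitors but took place. The summed level at stage 13 was 3.60 times that at stage 9 with IBET and 5.01 times with its vehicle, and 2.96 times with TSA and 5.89 times with its vehicle. As shares of reads these ratios were 2.65 and 3.33 with IBET and its vehicle, and 2.82 and 3.57 with TSA and its vehicle. With either inhibitor 134 of all 137 members, tested or not, had both stage 13 libraries above both stage 9 libraries. Of all genes with at least 1 CPM 40.2% (IBET) and 41% (TSA) did. With IBET from stage 9 onwards the sum reached 7.24 times the untreated stage 9 level in uninjected explants (8.14 times with DMSO) and 8.21 times in Wnt/Chrd explants (9.93 times with DMSO).

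**Figure D3:**
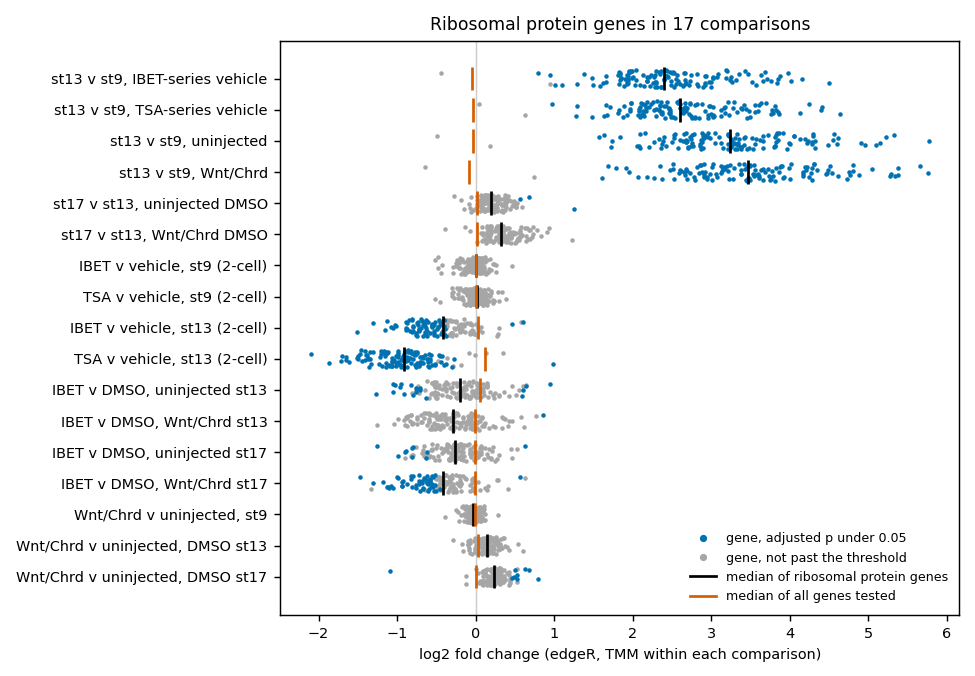
Log2 fold changes of the tested ribosomal protein genes (1 point per gene, coloured where the adjusted p was under 0.05) in 17 comparisons, with a black bar at the median of the family and an orange bar at the median of all genes tested. The 4 series from stage 9 to stage 13 have medians of 2.40 to 3.48, the inhibitors at stage 9 have 0.00 and 0.02, and at stage 13 IBET and TSA from the 2-cell stage have −0.42 and −0.91.

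Of the other lists, that of ribosome biogenesis had the most falls at stage 13. With IBET 87 of 123 biogenesis genes were lower (70.7%, against 29.3% of all genes) and 5 higher, with a median of −0.81. With TSA 109 were lower (88.6%, against 35.8% of all genes) and 2 higher, with a median of −1.04. Of 73 translation factors 25 were lower with IBET, which at 34.2% is near the 29.3% of all genes, and 10 were higher, while 51 were lower (69.9%) and 5 higher with TSA. Mitochondrial ribosomal proteins had 30 lower (30.9%) and 13 higher (13.4%) of 97 with IBET, and 28 lower (27.7%) and 29 higher (28.7%) of 101 with TSA, shares near or below those of all genes. *rack1.L* fell by 0.73 with IBET. The epidermal list, with all 8 genes above 1 CPM in both vehicle groups, summed to 4940 to 7187 CPM there, to 590 to 617 CPM with IBET and to 176 to 213 CPM with TSA, and the neural list (both copies of *zic1* and *sox11* and 1 of *sox2*) to 50.6 to 79.9 CPM with vehicle and 959 to 1059 CPM with IBET. The blastula list held both copies of *pou5f3.2*, *pou5f3.3*, *ventx2.2* and *sox3*. It summed to 1224 to 1629 CPM with the IBET vehicle and 3604 to 3767 CPM with IBET. In the TSA set it summed to 835 to 903 CPM with vehicle and 1372 to 1705 CPM with TSA. In the IBET vehicle at stage 9 it summed to 3704 to 3734 CPM. The near-equal sums hide members that went opposite ways. *pou5f3.3.L* and *pou5f3.3.S* averaged 588 and 359 CPM in that stage 9 vehicle. At stage 13 they averaged 4.47 and 9.15 CPM with IBET and 2.12 and 1.92 CPM with its vehicle. All other genes of the list averaged more with IBET at stage 13 than in the stage 9 vehicle, such as *pou5f3.2.L* with 1351 and 1021 CPM. The part of these changes of state in the levels of ribosomal protein genes was not tested.

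Whether the inhibitors acted differently was tested in 1 fit of both sets. At stage 13 the effect of IBET lay above that of TSA for 55 of 134 members and below it for 0 (13.9% and 12.6% of all genes), with a median difference of 0.46. *rpl10.S*, of a protein that joins the large subunit late in its maturation, led with 0.97 ± 0.19 (edgeR adjusted p = 0.0044). It measured 123 and 140 CPM with vehicle and 124 and 127 CPM with IBET, and 162 and 141 CPM with vehicle and 77.8 and 66.8 CPM with TSA. With library totals 0 members differed upwards and 2 downwards, so the direction rests on the scaling. Left out singly, library a of the IBET vehicle gave 22 members, a of IBET 28, a and b of the TSA vehicle 21 and 23, and a and b of TSA 22 and 15. At stage 9, 0 of 134 differed (0.963% of all genes, 0 at an unadjusted p under 0.05, 0 by DESeq2).

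The effect at stage 13 was also set against that at stage 9. For IBET 14 of 134 members had a lower effect at stage 13 (15.4% of all genes were called lower), led by *rpl8.L* (−1.48 ± 0.27), *rpl34.S* (−1.25 ± 0.24) and *rpl35a.S* (−1.12 ± 0.35). This count moved widely. It was 29 with DESeq2, 35 with no filter, 40 with the letter as a block and 8 with library totals. Without library a of the stage 9 vehicle it was 3, without a or b of IBET at stage 9 it was 50 or 4, without b of the stage 13 vehicle 4, and without a or b of IBET at stage 13 it was 7 or 3. For TSA 124 of 134 had a lower effect at stage 13 (27.3% of all genes were called lower), with a median of −1.02, and 34 with library totals, where 3 had a higher effect.

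The relation between the inhibitor effect and the normal rise was described over the 134 tested members with comparisons that share no library. Against the rise from stage 9 to stage 13 in uninjected explants, the effect of IBET from the 2-cell stage had a correlation of −0.71 and that of TSA −0.65. Over the 34 members with the smallest rise the median effect of IBET was −0.17 and that of TSA −0.61. Over the 34 with the largest rise these were −0.73 and −1.17. With the rise taken from the vehicle explants of the TSA set, the effect of IBET from stage 9 on uninjected explants at stage 13 had a correlation of −0.75, with medians of 0.10 and −0.56 over the 34 members at either end. These are correlations across genes, which are not independent replicates and which share base composition and counting, and no p is given. All 74 members that fell with IBET from the 2-cell stage also fell with TSA, where they made up 59.2% of the 125. The 125 are 93.3% of the members tested, so nearly any set of members would overlap with them.

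**Figure D4:**
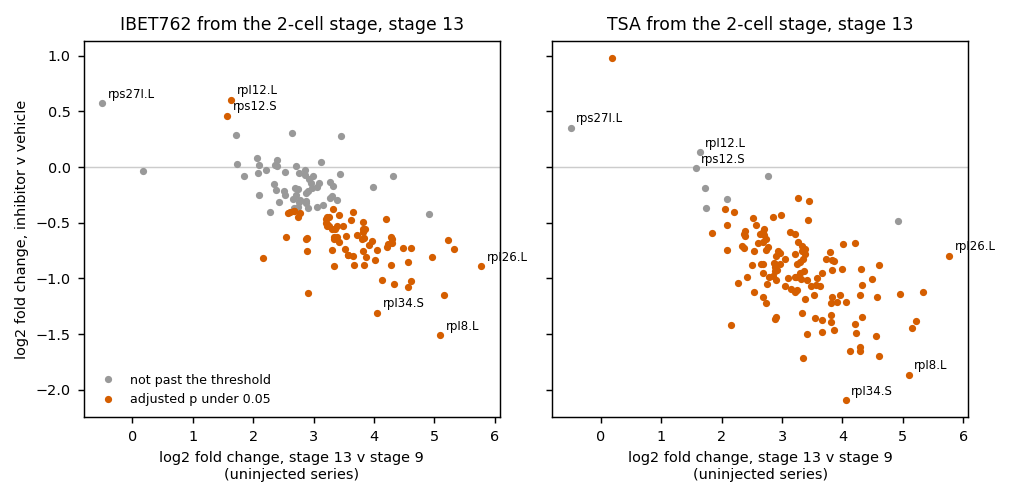
Log2 fold change from stage 9 to stage 13 in uninjected explants (horizontal axis) against the log2 fold change at stage 13 with IBET or TSA from the 2-cell stage (vertical axes of the left and right panels), 1 point per tested ribosomal protein gene, orange where the inhibitor effect passed. Members with larger rises lie lower on the inhibitor axis, with correlations of −0.71 for IBET and −0.65 for TSA from the 2-cell stage.

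IBET given from stage 9 was followed in both kinds of explant. The marker lists moved with it. In uninjected explants at stage 13 the epidermal list summed to 5206 to 10800 CPM with DMSO and 130 to 862 CPM with IBET. The neural list summed to 29.1 to 54.0 CPM and 1120 to 1332 CPM. The blastula list summed to 456 to 984 CPM and 2536 to 4062 CPM. Their part in the levels of the family was not tested. In uninjected explants at stage 13, 15 of 134 members were lower and 4 higher, with a median of −0.20. These counts lay below the 25.2% and 22.9% of all genes. In simulated data with 100 genes changed by 1 on the log2 scale and 100 by 2, this fit recovered 2% of changes of 1. An adjusted p is harder to reach where so few of 21386 genes change. This rate is thus not that of the test in the data, where some changes smaller than 1 passed. The summed level was 18939 ± 3260 CPM with IBET and 21279 ± 1958 CPM with DMSO (SD, n = 3 each), and within letters the ratio was 0.961, 0.820 and 0.877. *rpl8.L* measured 197, 145 and 140 CPM with DMSO and 111, 45.7 and 43.4 CPM with IBET, with all IBET libraries below all DMSO libraries (−1.27 ± 0.38, edgeR adjusted p = 0.024). *rpl37.S* fell by 1.05, from 75.8, 62.4 and 80.0 CPM to 43.9, 25.3 and 36.2 CPM, and *rpl36.L* by 1.05. All 15 were among the 74 that fell with IBET from the 2-cell stage, and they make up 20.3% of those, which are 55.2% of the members tested.

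The 4 members that rose were *rpl12.L*, *rps12.S*, *rps18.L* and *rpl11.S*. *rpl12.L* measured 118, 136 and 112 CPM with DMSO and 245, 239 and 227 CPM with IBET (0.95 ± 0.22, edgeR adjusted p = 0.0077), groups that lie far apart. *rps12.S* went from 135, 148 and 170 CPM to 231, 233 and 243 CPM, *rps18.L* from 221, 219 and 211 CPM to 357, 304 and 319 CPM, and *rpl11.S* from 230, 172 and 198 CPM to 300, 311 and 298 CPM. None of these overlapped. The log2 fold changes of the latter 3 were 0.59 to 0.64. With the letter as a block 29 members were lower and 5 higher, and with library totals 9 were lower and 5 higher. The count of lower members was 2, 5 and 6 without DMSO library a, b or c, and 36, 4 and 1 without IBET library a, b or c. The count of higher members was 1 without any single DMSO library, and 5, 2 and 1 without IBET library a, b or c. IBET library a took 1.85% of its reads from the family and b and c 1.52% and 1.60%. Library a had the highest share in the DMSO group as well. In IBET library a 58.9% of reads lay in genes, and 21.3% fitted more than 1 place. Reads in genes made up 62.1% of all reads with IBET and 72.8% with DMSO (group means). As a share of all reads the family took 1.03% and 1.24%.

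In Wnt/Chrd explants at stage 13 only *rpl12.L* passed, with 125, 124 and 129 CPM with DMSO and 213, 242 and 219 CPM with IBET (0.86 ± 0.25, edgeR adjusted p = 0.0496). Higher and lower calls took 6.71% and 8.6% of all genes. *rpl12.L* lost its call with DESeq2, with scaling over all 46 libraries and with no filter, its libraries staying apart. The member median was −0.29. The neural crest list summed to 721 to 1213 CPM with DMSO and 24.5 to 121 CPM with IBET. The epidermal list summed to 259 to 5551 CPM and 114 to 209 CPM. The part of these differences was not tested. Reads in genes made up 74.1% of all reads with DMSO and 65.0% with IBET. With the block 13 were lower and 1 higher, and without IBET library a 13 were lower and 1 higher. Without any other single library 0 were called. *rpl8.L* measured 270, 153 and 141 CPM with DMSO and 128, 57.1 and 48.9 CPM with IBET, without overlap, and its test gave −1.26 ± 0.45 (edgeR adjusted p = 0.085).

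At stage 17 uninjected explants had 9 members lower and 1 higher with IBET (25.7% and 22% of all genes), with a median of −0.26. The epidermal list summed to 12641 to 24630 CPM with DMSO and 328 to 2830 CPM with IBET, and its part was not tested. The summed level was 22979 ± 4090 CPM with IBET and 24490 ± 2669 CPM with DMSO (SD, n = 3 each), which overlap, and within letters the ratio was 0.965, 0.809 and 1.04. As a share of all reads the family took 1.28% and 1.53%. In IBET library b only 54.3% of reads lay in genes, and 23.6% fitted more than 1 place. *rpsa.L* went from 235, 200 and 170 CPM to 138, 64.9 and 76.7 CPM, below all DMSO libraries (−1.25 ± 0.32, edgeR adjusted p = 0.013), and *rpl8.L* and *rpl35a.S* fell by 0.99 and 0.90. The member that rose was *rpl12.L*, from 125, 119 and 113 CPM to 208, 201 and 193 CPM (0.63 ± 0.21). Its groups do not overlap, but without any 1 of the 6 libraries, with no filter or with DESeq2, 0 members were called higher. With library totals 3 were lower and 2 higher, and with scaling over all 46 libraries 2 were lower and 1 higher. With the block 15 were lower and 0 higher. Without DMSO library a, b or c the count of lower members was 1, 3 and 2, and without IBET library a, b or c it was 15, 3 and 0.

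In Wnt/Chrd explants at stage 17, 53 of 134 members were lower with IBET and 1 higher (25.8% and 24.4% of all genes, 50.1% either way), with a median of −0.42 against −0.01 over all genes. The summed level was 24204 ± 3331 CPM with IBET and 31270 ± 2502 CPM with DMSO (SD, n = 3 each), and the ratio within letters was 0.808, 0.718 and 0.789. As a share of all reads the family took 1.47% and 2.15%. Reads that fit more than 1 place made up 14.8% and 13.4%. The fall took in 20 of 55 members of the small subunit and 33 of 79 of the large. *rpsa.L* fell most, from 319, 239 and 238 CPM to 128, 82.2 and 87.2 CPM (−1.47 ± 0.22, edgeR adjusted p = 0.0011). *rpl35a.S*, whose human counterpart is mutated in some families with Diamond-Blackfan anaemia, went from 72.4, 51.8 and 61.4 CPM to 29.3, 21.1 and 27.3 CPM (−1.30 ± 0.20). *rpl17.L*, of a protein near the exit of the peptide tunnel, went from 220, 179 and 193 CPM to 101, 69.2 and 102 CPM (−1.17 ± 0.20). In all 3 the IBET libraries lay below every DMSO library. *rpl12.L* again rose, from 156, 135 and 119 CPM to 205, 210 and 208 CPM (0.56 ± 0.18, edgeR adjusted p = 0.028). The count of lower members was 26 without DMSO library a, 29 without IBET library b and 35 without IBET library c. That of higher members was 0 with no filter and without DMSO library b or c or IBET library b or c. Of the 53, 48 had fallen with IBET from the 2-cell stage as well, 90.6% of the 53 and 64.9% of the 74. As 74 of 134 tested members had fallen there, a large part of nearly any set of members would overlap with them. Of 124 biogenesis genes 88 were lower (71%) and 3 higher. The epidermal list summed to 2103 to 7716 CPM with DMSO and 16.4 to 129 CPM with IBET, and the neural crest list to 2394 to 2582 CPM and 250 to 519 CPM, and their part was not tested.

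Whether IBET acted differently in the 2 kinds of explant was tested as an interaction. At stage 13, 0 of 135 members passed (2.24% of all genes), with 0 at an unadjusted p under 0.05 and 0 by DESeq2. At stage 17, 0 of 134 passed (12.9% of all genes), with 4 at an unadjusted p under 0.05, 1 by DESeq2 and 2 with the letter as a block, although 131 of 134 estimates were negative, with a median of −0.20 where all genes had −0.11. More members fell in Wnt/Chrd explants at stage 17. Without that block edgeR did not show this to be a difference in effect for any single member. In simulated data this interaction test at stage 17 recovered 0% of changes of 1 and 3% of changes of 2 on the log2 scale. Only 100 of 23500 genes were changed by each size there, so these rates need not hold in the data. The count of 0 members in the data does not show that the effects were equal.

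Wnt/Chrd and uninjected explants were compared at each stage. At stage 9, 0 of 134 members passed (0.0244% of all genes), and at stage 13, 0 of 134 (12%, of which 4.4% higher and 7.58% lower), with 0 at an unadjusted p under 0.05 and 0 by DESeq2 in both. At stage 17 with DMSO 8 members were higher in Wnt/Chrd explants and 1 lower (18.9% and 22.3% of all genes, 41.2% either way). The median was 0.24, and 131 of 134 estimates were positive. The family took 3.07%, 2.79% and 2.91% of reads in Wnt/Chrd explants and 2.32%, 2.01% and 1.89% in uninjected ones, with no overlap. For 72 members every Wnt/Chrd library lay above every uninjected one (31.5% of all genes with at least 1 CPM) and for 1 below. The 72 were counted with no limit on level and include *rpl3l.L*, which was not tested and had at most 1 read in a library.

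Of the 5 stalk genes 3 were higher. *rplp0.L* measured 358, 337 and 221 CPM in uninjected and 610, 552 and 538 CPM in Wnt/Chrd explants (0.80 ± 0.21, edgeR adjusted p = 0.019), and *rplp2.S* 44.3, 46.04 and 48.6 CPM and 78.9, 71.97 and 87.0 CPM (0.68 ± 0.16, edgeR adjusted p = 0.011). *rplp2.L* rose by 0.49 ± 0.15, while *rplp0.S* (0.43 ± 0.19) and *rplp1.L* (0.16 ± 0.18) did not pass. *rpl4.S*, of a protein that lines the exit tunnel, measured 206, 178 and 211 CPM and 347, 295 and 338 CPM (0.62 ± 0.16). *rplp0.L*, *rplp2.S* and *rpl4.S* were without overlap. *rps27l.L* went the other way, with 10.8, 8.06 and 11.4 CPM in uninjected and 5.74, 4.39 and 5.05 CPM in Wnt/Chrd explants (−1.09 ± 0.25, edgeR adjusted p = 0.011). The count of higher members was 26 with the block, 52 with library totals and 3 with no filter. It was 15, 2 and 2 without uninjected library a, b or c, and 1, 2 and 3 without Wnt/Chrd library a, b or c. Of 124 biogenesis genes 106 were higher (85.5%) and 0 lower, with a median of 1.10, led by *ddx51.L*, an RNA helicase, with 1.80. Of 34 genes of RNA polymerases I and III 22 were higher (64.7%), and of 73 translation factors 28 (38.4%).

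The calls of .L and .S copies of a symbol were compared. Both copies were tested for 57 symbols. With IBET from the 2-cell stage both were lower for 21 symbols, 1 of the copies for 18 and neither for 16, and *rps12* was the only symbol with copies called in opposite directions. With TSA both were lower for 50. As 125 of 134 members were lower there, nearly any 2 members would both be lower. Calls were not counted in other gene pairs. With IBET in Wnt/Chrd explants at stage 17 both were lower for 14, 1 of them for 17 and neither for 25, and with IBET in uninjected explants at stage 13 these counts were 2, 10 and 42. The share of the level of a pair that fell on .L was followed in the 40 pairs with at least 20 CPM in every group. It ranged over the 18 groups by 1.94 to 52.6 percentage points, with a median of 13.8 points, beside 25.6 points for 2285 other gene pairs.

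The widest range was that of *rps12*, a small-subunit protein. Its .L copy held 12.2% of the pair in uninjected explants at stage 9 (9.91% to 15.9% over 3 libraries), 52.6% with DMSO at stage 13 (46.9% to 62.8%) and 64.1% at stage 17 (55.8% to 72.1%). With IBET it held 28.9% at stage 13 (21.6% to 36.9%), without overlap with DMSO, and 41.4% at stage 17 (28.6% to 57.8%), with overlap. In the IBET set it went from 13.5% to 52.7% with vehicle and stood at 33.0% with IBET at stage 13, and in the TSA set from 16.6% to 53.1% with vehicle and stood at 38.2% with TSA. *rpl12* moved towards .S, from 51.9% on .L at stage 9 to 31.8% with DMSO and 43.5% with IBET at stage 13. *rps4x* went from 34.2% to 55.9% and stood at 46.6% with IBET, and *rps10* from 72.3% to 59.6% and stood at 70.9% with IBET. *rplp0* went from 59.1% to 77.5% and stood at 75.1% with IBET, where the libraries overlap with DMSO. In all 5 pairs the mean share with IBET lay between those at stage 9 and with DMSO. These 5 pairs have the widest ranges of the 40 over the same groups and were chosen for that, so this is a description of them. Over all 40 pairs the .L share with IBET in uninjected explants at stage 13 lay wholly above DMSO in 8 and wholly below it in 14, 20% and 35%, beside 22.5% and 26.3% of the other pairs.

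**Figure D5:**
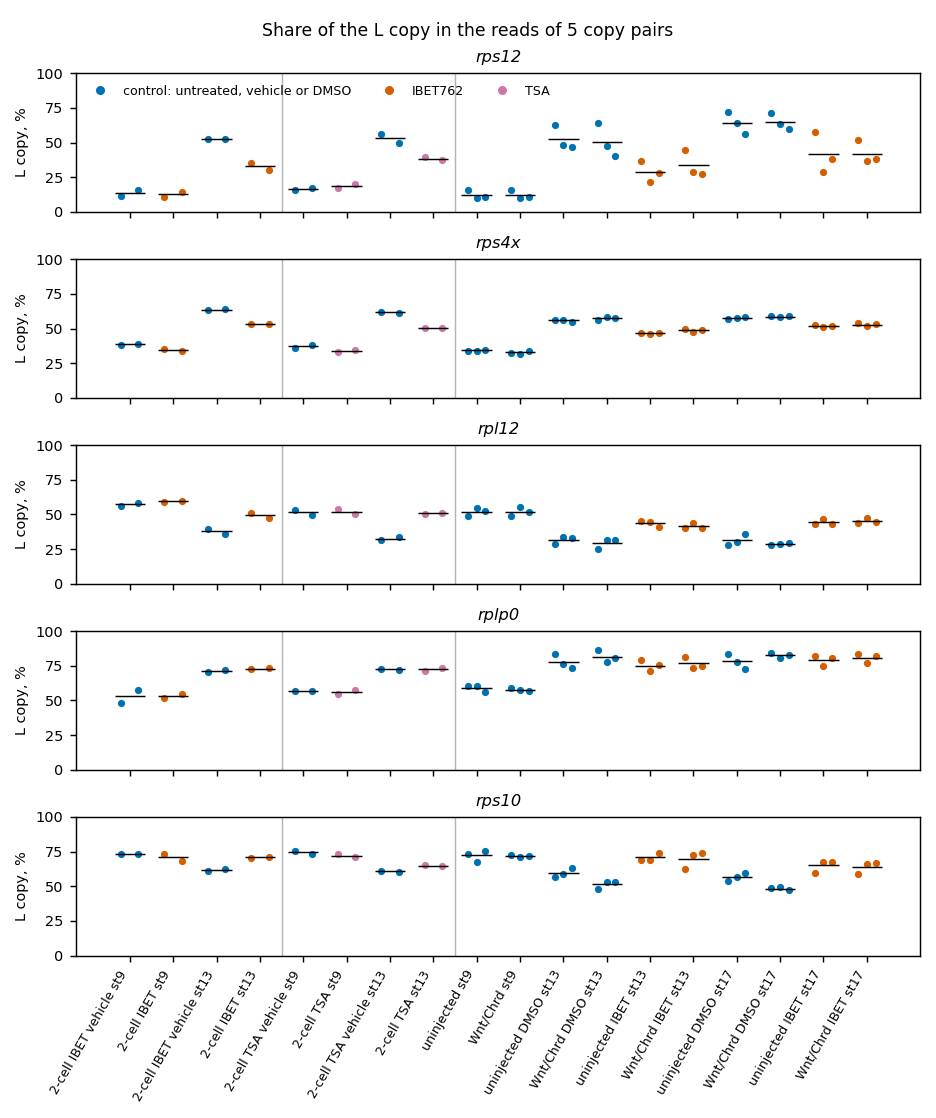
Share of a pair's level that fell on the .L copy (vertical axis, percent) for the 5 symbols whose share ranged most, 1 point per library in the 18 groups. The *rps12* pair moves from 12.2% on .L at stage 9 to 52.6% with DMSO at stage 13 in uninjected explants, and stands at 28.9% with IBET.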

How the data were processed

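RNA was extracted from explants with Trizol and lithium chloride, and libraries were made with the NEBNext Ultra II directional kit. Per the labels and the study's methods, the authors used fastp (0.23.2) for trimming and STAR (2.6.0) for alignment to *X. laevis* genome 9.2, and deposited whole-number counts of reads per gene, which the submitters' processing notes credit to HTSeq (1.99.2). The strand setting, the annotation version and any poly(A) selection or rRNA removal are not given in the sources used here. Between 54.3% and 82.8% of the reads in a library were counted in genes. The entries that name no gene held the rest (no feature 7.94% to 21.6%, ambiguous 0.189% to 0.690%, not unique 8.97% to 23.6%), and they were left out of library sizes and tests. Tables of the authors' own comparisons, with log2 fold changes, p-values and 30 columns of scaled counts per library, were not used. No sequences or coordinates were used.

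Each comparison was fitted to the deposited counts with edgeR (4.0.16, R 4.3.3) by the quasi-likelihood test, over the libraries of the groups compared. Genes were kept by filterByExpr (minimum count 10, minimum total 15), libraries were scaled by TMM, and p-values were adjusted over all genes tested (Benjamini-Hochberg, threshold 0.05). A difference between effects was tested as an interaction. Standard errors were taken from the F statistic. The ribosomal protein genes, the further lists (ribosome biogenesis, RNA polymerases I and III, translation factors, TOR and TOP mRNA control and mitochondrial ribosomal proteins) and the tests were chosen with earlier results of these data known, so that no list has a test of its own. Named members are the 3 that rose and the 3 that fell most per comparison (mean of at least 10 CPM), those of fixed roles, those called against the majority where 5 or fewer, the 5 pairs with the widest range of copy share (at least 20 CPM in every group), and the members of highest and lowest level, of which some items are not reported here. *rpl3l.S* at stage 13 in the third set was named after its values were seen. From other lists at most 4 genes per comparison were eligible, by adjusted p.

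No libraries of a group were alike within sampling noise (chi-square over genes, at least 8.15 per degree of freedom). Count columns carry letters and the labels replicate numbers, with no key between them. In the third set libraries with the same letter deviated together from their group means. Correlations over genes were 0.13 to 0.90, against −0.57 to 0.08 for different letters. Deviations cancel within a group, so the low values for different letters follow in part from the positive values for the same letter. The letters were thus taken to pair libraries there. In the sets with 2 libraries a group the same-letter correlations were 0.78 for either inhibitor at stage 9. They were 0.40 and 0.33 for IBET and TSA at stage 13, and 0.12 and 0.24 between the stages in their vehicles. With 2 libraries a group, different letters take the same value with the sign turned. The main tests were fitted without this pairing, which entered only as an alternative. Library a took the highest share of reads from the family in all 8 groups of that set with DMSO or IBET. The alternatives were RLE size factors, library totals, TMM over all 46 libraries, no filter, DESeq2 (1.42.0), the letter as a block and each library left out in turn. The fit was tested on simulated data first, with 100 genes changed by 1 and 100 by 2 on the log2 scale. It recovered 41% and 91% of these for IBET at stage 9 and 74% and 98% for TSA at stage 13. For IBET in uninjected explants at stage 13 it recovered 2% and 51%. For the interaction of IBET and explant at stage 17 it recovered 0% and 3%. So few changed genes make the adjusted threshold stricter than in comparisons where many genes are called. These rates need not hold in the data.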

Additional observations from a re-analysis of the deposited data

Results flagged for a closer look

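Differences between 2 effects passed the interaction test of edgeR in 3 comparisons. At stage 13, 55 of the 134 tested members differed between IBET and TSA from the 2-cell stage, all with the effect of IBET above that of TSA. Over all 25153 genes tested, 3488 lay above and 3163 below. With library totals 0 members lay above and 2 below. The differences of IBET minus TSA were 0.97 ± 0.19 (*rpl10.S*, edgeR adjusted p = 0.0044), 0.96 ± 0.20 (*rpl27a.S*, 0.0066) and 0.95 ± 0.20 (*rps9.L*, 0.0065) on the log2 scale. *rps9.L*, a small-subunit protein, measured 49.7 and 61.4 CPM with vehicle and 51.0 and 53.4 CPM with IBET, which overlap. In the TSA set it measured 50.4 and 45.7 CPM with vehicle and 22.9 and 22.6 CPM with TSA, which do not. *rpl27a.S* went from 68.2 and 82.4 CPM to 52.6 and 44.4 CPM with IBET and from 91.9 and 85.5 CPM to 28.6 and 28.8 CPM with TSA. Each inhibitor was set against its own vehicle, and the sets are separate groups of libraries.

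The effect of IBET differed between stage 13 and stage 9 for 14 members, all lower at stage 13. Over all 24090 genes tested, 3703 were called lower, and with library totals 8 members were. The largest differences were −1.48 ± 0.27 (*rpl8.L*, edgeR adjusted p = 0.0045), −1.25 ± 0.24 (*rpl34.S*, 0.0056) and −1.12 ± 0.35 (*rpl35a.S*, 0.041). For TSA 124 members differed in the same direction, led by −2.05 ± 0.18 (*rpl34.S*, edgeR adjusted p = 4.2e-05), −1.92 ± 0.21 (*rpl8.L*, 0.00012) and −1.82 ± 0.31 (*rpl27a.S*, 0.0015). Over all 26144 genes tested there, 7132 were called lower, and with library totals 34 members were lower and 3 higher.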

How the results depend on the processing

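The counts of members higher at stage 13 than at stage 9 and the counts with TSA from the 2-cell stage stayed within 1.5 times under RLE size factors, DESeq2, no filter and TMM over all 46 libraries. Other counts moved, and the cause was not tested. DESeq2 called 0 for IBET in Wnt/Chrd explants at stage 13, 7 for stage 17 against 13 in Wnt/Chrd explants, 1 for the interaction of IBET and explant at stage 17 and 29 for IBET at stage 13 minus stage 9. TMM over all 46 libraries gave 0 for IBET in Wnt/Chrd explants at stage 13 and 3 in uninjected explants at stage 17. Library totals gave 83 for TSA at stage 13, 5 for IBET in uninjected explants at stage 17, 53 for Wnt/Chrd against uninjected at stage 17, 5 and 19 for stage 17 against 13 in uninjected and Wnt/Chrd explants, 1 for the interaction at stage 17, and 2 for IBET minus TSA at stage 13, where the balance of calls reversed. For stage 13 minus stage 9 they gave 8 with IBET and 37 with TSA. No filter gave 1 for IBET in Wnt/Chrd explants at stage 13, a lower member in place of a higher one, 6 in uninjected explants at stage 17, 4 for Wnt/Chrd against uninjected at stage 17, 0 for stage 17 against 13 in uninjected explants and 35 for IBET at stage 13 minus stage 9.

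With the replicate letter as a block the counts were 34 and 14 for IBET in uninjected and Wnt/Chrd explants at stage 13, 27 for Wnt/Chrd against uninjected at stage 17, 19 and 21 for stage 17 against 13 in uninjected and Wnt/Chrd explants, and 2 for the interaction at stage 17. In the sets with 2 libraries a group the block gave 7 and 4 for IBET and TSA at stage 9. It gave 40 for IBET at stage 13 minus stage 9. Same-letter correlations there were 0.12 to 0.78. All these counts lay above those of the main tests, which left the letter out. The block moved no other count of members by over 1.5 times.

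With each library left out in turn the counts ran from 46 to 68 for IBET from the 2-cell stage at stage 13, 3 to 50 for IBET at stage 13 minus stage 9, 15 to 60 for IBET minus TSA at stage 13, 2 to 41 and 0 to 14 for IBET in uninjected and Wnt/Chrd explants at stage 13, 0 to 15 and 27 to 60 at stage 17, 2 to 16 for Wnt/Chrd against uninjected at stage 17, and 0 to 1 and 0 to 65 for stage 17 against 13 in uninjected and Wnt/Chrd explants. In the sets with 2 libraries a group the library left alone was assumed to vary like the other groups. Of 255 results for single named genes 85 lost a call under at least 1 alternative, and 13 changed sign, all with library totals. With TSA at stage 13 these took log2 values of 0.29 (*rpl10.L*), 0.075 (*rpl11.L*), 0.14 (*rpl5.S*), 0.014 (*rplp0.L*), 0.0051 (*rplp0.S*), 0.042 (*rplp1.L*), 0.32 (*rplp2.L*), 0.15 (*rps27.L*) and 0.024 (*rps27.S*). For TSA at stage 13 minus stage 9 they took 0.11 (*rpl10.L*), 0.21 (*rplp2.L*) and 0.0066 (*rps27.L*), and for IBET minus TSA at stage 13 *rpl7l1.L* took −0.0056.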

Other observations

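Among the members with the most reads over the groups (mean CPM, without regard to length) were *rpl3.L*, *rpl4.L*, *rpsa.S* and *rps20.L*. *rpl3.L*, of a large-subunit protein near the peptidyl transferase centre, stood at 73.3 ± 10.4 CPM (SD, n = 3) in uninjected explants at stage 9, 722 ± 76.2 CPM with DMSO at stage 13 and 1173 ± 147 CPM in Wnt/Chrd explants with DMSO at stage 17. With IBET from the 2-cell stage *rpl4.L*, *rpsa.S* and *rps20.L* fell by 0.65, 0.76 and 0.53 on the log2 scale, while *rpl3.L* (−0.30) did not pass. With TSA all 4 fell, *rpl4.L* by 1.37 and *rpl3.L* by 0.73.

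Genes that act on the translation of ribosomal protein mRNAs were counted as a list of TOR and TOP mRNA control. Of 33 tested, 18 were higher (54.5%, against 35.9% of all genes) and 6 lower (18.2%, against 35.4%) at stage 13 than at stage 9 in uninjected explants, with a median of 0.67. *cnbp.L*, whose product binds the leader of these mRNAs in *Xenopus*, went from 36.3 ± 3.499 to 323 ± 38.6 CPM (SD, n = 3), and *rps6kb1.L*, an S6 kinase, from 7.61 ± 1.13 to 97.8 ± 8.13 CPM. With IBET from the 2-cell stage 14 of 33 were lower (42.4%, against 29.3% of all genes) and 5 higher, and with TSA 16 were lower (48.5%, against 35.8%) and 8 higher. *larp1.L*, of a protein that binds the cap and the first bases of these mRNAs, stood at 362 ± 44.2 CPM with vehicle and 130 ± 5.29 CPM with IBET, and at 323 ± 5.27 CPM with vehicle and 66.1 ± 5.05 CPM with TSA (SD, n = 2 each). Its paralog *larp1b.L* rose with IBET, from 90.7 ± 4.14 to 180 ± 24.4 CPM.

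Genes of RNA polymerases I and III, which make ribosomal RNA, 5S RNA and tRNA, split in uninjected explants into 14 higher and 13 lower of 34 at stage 13, and these 41.2% and 38.2% are near the 35.9% and 35.4% of all genes. With IBET from the 2-cell stage 19 of 34 were lower (55.9%) and 3 higher at stage 13, where 29.3% and 27.4% of all genes were. With TSA 21 were lower (61.8%) and 5 higher, where 35.8% and 36.9% of all genes were. *ubtf.L*, of a polymerase I factor, rose from 45.8 ± 0.771 to 177 ± 15.6 CPM (SD, n = 3) in uninjected explants and stood at 134 ± 0.506 CPM with vehicle and 12.01 ± 1.59 CPM with TSA at stage 13 (SD, n = 2 each). Mitochondrial ribosomal proteins had 24 higher and 14 lower of 97 with IBET in uninjected explants at stage 13, with a median of 0.40, and these 24.7% and 14.4% stand beside 22.9% and 25.2% of all genes. Between stages 13 and 17 under IBET the summed level of the cytosolic family changed 1.21-fold in uninjected and 1.16-fold in Wnt/Chrd explants.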
